A study of Mus musculus with 23 samples.

Results

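The 10 genes described here, Hk1, Aldoa, Aldoc, Gapdh, Pgk1, Eno1, Eno2, Pkm, Ldha and Ldhb, encode enzymes of glycolysis and lactate dehydrogenase. They were chosen by gene symbol from the 48709 gene identifiers of the total RNA tables (22018 of them mRNAs), and all 10 have a row in both the synaptosome and the chamber table. The study sequenced RNA from hippocampal synaptosomes, which are nerve terminals pinched off when tissue is homogenized, and from the perfusion channel of microfluidic chambers, a narrow compartment into which cultured neurons send their neurites. It asked which RNAs reside at synapses and whether stimulation of the cultures changes them.

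Glycolysis splits glucose into pyruvate and yields ATP without oxygen, and lactate dehydrogenase interconverts pyruvate and lactate. Several steps have isoforms from separate genes. In brain, Eno2 (neuron-specific enolase) marks neurons and Eno1 is the widely expressed form that glia use, while Aldoc is a marker of astrocytes beside the widely expressed Aldoa. Ldha favours the formation of lactate and Ldhb its conversion to pyruvate.

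Synaptosomes came from male wild-type C57B/6J mice of 3 months, without stimulation, and the 3 libraries are 3 pools of hippocampi from several mice each. Chamber cultures were made from hippocampi of CD1 mouse embryos of day 17 and were kept for 14 days. Control chambers (8 libraries of total RNA) were not stimulated, and KCl chambers (3 libraries) received 50 mM KCl for 2 h, which depolarizes neurons. Each chamber library pooled 2 chambers, and no label says which chambers share a culture, so that p-values measure the spread between these libraries. Synaptosomes and chambers differ in strain, age, preparation and library kit (Illumina TruSeq against Takara SMARTer Pico), and these cannot be told apart in any difference between them. Libraries are called by the names in the tables: pools 1 to 3, controls C1, C2, C3, C9, C11, Ctrl3, Ctrl4 and sc3, and KCL1, KCL1a and KCL4.

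The isoform pairs can be told apart by sequence. Their coding sequences were identical at 75.5% of aligned bases for Aldoc and Aldoa, 75.1% for Eno1 and Eno2, and 71.1% for Ldhb and Ldha, and the longest identical runs were 26, 20 and 18 bases, so that no pair shared any stretch of 50 bases. The first 60 coding bases of each member, read from the GENCODE transcripts of GRCm38 (mm10), are shown because they show how often a read can tell one isoform from the other. Capitals mark bases that differ from the partner, 11 for the aldolases, 13 for the enolases and 22 for the lactate dehydrogenases.
Aldoc: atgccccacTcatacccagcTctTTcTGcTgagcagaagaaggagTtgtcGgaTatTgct
Aldoa: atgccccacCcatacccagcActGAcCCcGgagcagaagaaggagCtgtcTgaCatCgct
Eno1: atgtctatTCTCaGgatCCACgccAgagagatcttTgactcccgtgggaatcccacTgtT
Eno2: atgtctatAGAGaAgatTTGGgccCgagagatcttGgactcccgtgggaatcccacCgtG
Ldhb: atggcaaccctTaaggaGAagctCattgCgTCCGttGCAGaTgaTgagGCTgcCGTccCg
Ldha: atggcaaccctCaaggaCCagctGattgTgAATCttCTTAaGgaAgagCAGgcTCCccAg

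Copies elsewhere in the genome are another matter. Each member's principal transcript was compared with the GRCm38 genome, and the share of its 50-base windows that occur exactly at another locus was counted. This share was 92.8% for Pgk1, 85.6% for Gapdh and 72.2% for Eno1. It was 40.5% for Pkm, 33.6% for Ldhb, 29.1% for Ldha and 15.1% for Aldoa. It was 0.583% for Eno2, 0.0526% for Hk1 and 0% for Aldoc, which is thus the member a counter can place best. Gapdh had 138 near-copies in the genome, and the following window, bases 415 to 464 of its coding sequence (chromosome 6), is shown because it occurred exactly at 83 other loci.
Gapdh: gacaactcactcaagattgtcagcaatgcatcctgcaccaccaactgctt
With windows of 100 bases the shares were 89.7% for Pgk1, 85.1% for Gapdh and 59.0% for Eno1, and 12.5% or less for the others. A read that lies in such a window cannot be placed at 1 locus. The study gives its depth in unique reads and required most of a read to match, but the read length and the counting of reads with several matches are not given in the sources used here. The part of repeated sequence in the levels below was not tested.

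Levels are given in CPM, which are counts per 1000000 counts of the whole table, as the authors deposited them, without a term for gene length. The synaptosome libraries held 14714196 to 16667516 counts, of which only 11.0% to 12.1% fell on mRNAs. Control libraries held 722529 (Ctrl4) to 48281227 (sc3) counts and KCl libraries 2632490 to 80883504, with 70.0% to 97.3% and 68.3% to 75.0% on mRNAs. Because this share differs, levels are also given per 1000000 mRNA counts, here called CPM of the mRNA total, where synaptosomes and chambers are set side by side.

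The control library sc3 stood apart from the others before any comparison. The 10 members took 2.01% of its mRNA counts, against 0.0673% to 0.300% in the other 7 controls. The summed level of 17 astrocyte markers (Aldoc left out) was 15848 CPM in sc3 and 1367 to 5045 CPM in the other controls, and that of 10 oligodendrocyte markers was 2567 against 277 to 445 CPM. The summed level of 15 neuron markers was 8432 CPM in sc3, within the 1529 to 9743 CPM of the others. The tests are therefore given with and without sc3. No neuron or astrocyte marker was at 0 in any group. At the study's cutoffs (50 CPM in synaptosomes and 100 CPM in chambers, applied here to the mean over libraries), 8 of 15 neuron and 10 of 17 astrocyte markers were detected in synaptosomes, 14 and 11 in control chambers (14 and 8 without sc3), and 15 and 9 in KCl chambers. Of all mRNAs with a count, 1.54% reached the cutoff in synaptosomes and 6.54% in control chambers (5.98% without sc3). Counts on astrocyte markers were thus present in both preparations, and the cells they came from were not tested. In bulk RNA fewer cells of a type and less RNA per cell cannot be told apart.

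A floor for low values came from 6 isozymes of other tissues, chosen after values were seen (Pklr, Pgk2, Gapdhs, Ldhc, Eno3 and Pgam2). Their median was 0.0518 CPM in sc3, 0.312 to 14.5 CPM in the other controls (highest in Ctrl4, with 6.81 CPM in Ctrl3), 1.71 to 5.70 CPM in KCl libraries and at most 0.0912 CPM in synaptosomes. The highest of the 6 isozymes was at 55.4 CPM in Ctrl4. There it lay above Ldhb (24.9 CPM), Pgk1 (27.7 CPM), Ldha (36.0 CPM), Eno1 (38.8 CPM), Aldoc (45.7 CPM) and Eno2 (52.6 CPM). In Ctrl3 it was at 26.7 CPM, above Pgk1 (19.4 CPM). These members were not clear of the floor in those libraries. Gene models on satellite repeats took 2.02% to 8.70% of counts in the 7 controls other than sc3. They took 0.0177% in sc3, 0.604% to 5.67% with KCl and at most 2.0e-05% in synaptosomes. Olfactory receptor genes took 0.121% to 0.951% in those 7 controls and 0.00503% in sc3. Such counts can come from nucleic acid other than mRNA, and their part in the levels was not tested.

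Hexokinase traps glucose in the cell as its phosphate, and Hk1 (chr10:62268855-62379908) is the main form in brain. It was at 26.6, 28.4 and 33.9 CPM in synaptosome pools 1, 2 and 3, at 104 to 441 CPM in controls (median 208) and at 392, 95.3 and 321 CPM in KCL1, KCL1a and KCL4. The KCl libraries spanned nearly the whole range of the controls. Hk1 was also among the members that sc3 raised least, to 2.40-fold the median of the other 7 controls (184 CPM).

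Aldolase cleaves fructose bisphosphate into the triose phosphates. Aldoc (chr11:78322968-78327781) was at 142, 125 and 146 CPM in the synaptosome pools, at 33.5 to 7929 CPM in controls (median 142) and at 52.1, 79.0 and 131 CPM in the KCl libraries. Aldoa (chr7:126795234-126800751) was at 45.7, 47.6 and 48.3 CPM in synaptosomes, at 65.0 to 3303 CPM in controls (median 170) and at 260, 138 and 219 CPM with KCl. Aldoc thus led the members in synaptosomes, ranking 60th of 15109 mRNAs with a count, whereas in the 7 controls without sc3 it ranked 954th of 21284. In sc3 it reached 56.6-fold the median of the other controls, and Aldoa 21.6-fold.

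Gapdh oxidizes glyceraldehyde phosphate and is widely used as a reference gene, and Pgk1 carries out the first step that forms ATP. Gapdh (chr6:125161715-125166467) had 1, 0 and 1 counts in the synaptosome pools, where a count of 0 in pool 2 allows up to 0.180 CPM (3 counts). In controls it was at 74.7 to 983 CPM (median 145), and in KCl libraries at 109, 62.3 and 149 CPM. Pgk1 (chrX:106187100-106203699) had 8, 9 and 0 counts in synaptosomes (pool 3 allows up to 0.182 CPM), 19.4 to 266 CPM in controls (median 59.8) and 44.0, 33.4 and 54.7 CPM with KCl. Both genes were close to absent from the synaptosome counts and had counts in every chamber library, although Pgk1 in Ctrl3 and Ctrl4 was within the range of the isozymes of other tissues.

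For both genes, counts in synaptosomes were set against those expected at the summed level of the 7 controls without sc3, in CPM of the mRNA total. Gapdh had 2 counts where 948 were expected, a control level 474 times the synaptosome level (exact 95% Poisson interval 131 to 3912). Pgk1 had 17 where 408 were expected, 24.0 times (15.0 to 41.2). These intervals cover counting error only. The rows of the tables that lie on near-copies of Gapdh held 51 synaptosome counts, against 2 on Gapdh itself, and 17082 control counts against 49707. They took 19.95% of both in sc3 and 44.7% to 87.9% in the other controls. No count fell on copies of Pgk1 in synaptosomes. Gapdh and Pgk1 are the members with the largest repeated share of their sequence, and Eno1, next in repeated share, was 1.80 times higher in controls (1.60 to 2.05), while the other 7 members lay between 0.151 (Aldoc) and 1.67 (Pkm) times.

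**Figure D1:**
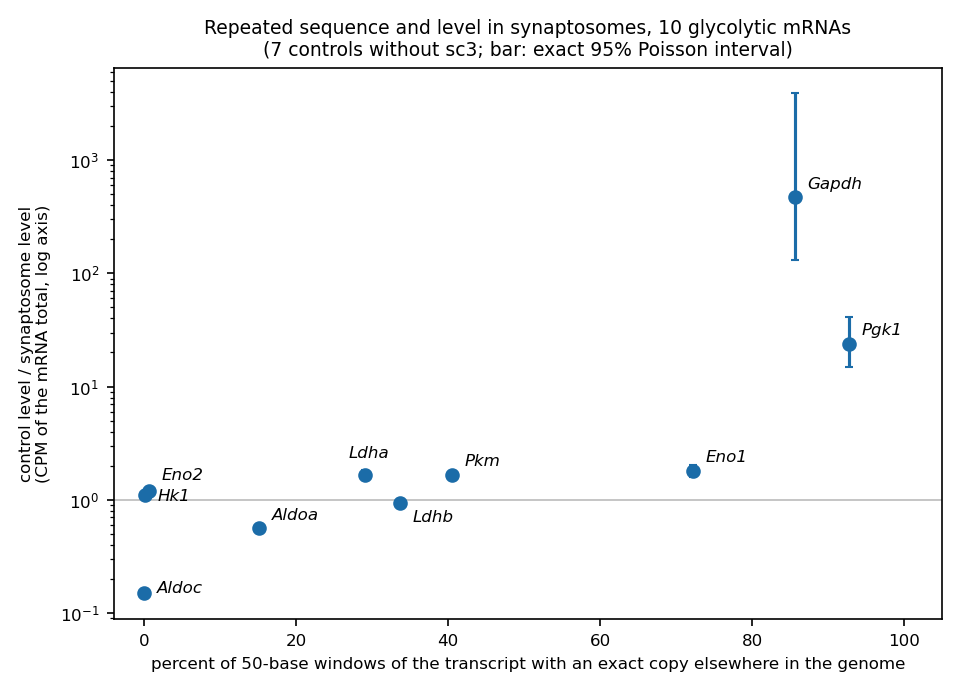
The share of each transcript's 50-base windows with an exact copy elsewhere in the genome (x axis, percent) is plotted against the level in 7 control libraries divided by that in synaptosomes (y axis, CPM of the mRNA total, log axis, bars are exact 95% Poisson intervals) for the 10 members. Gapdh (85.6%, 474) and Pgk1 (92.8%, 24.0) lie far above 1, Aldoc (0%, 0.151) lies lowest, and the other 7 members lie between 0.562 and 1.80.

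Enolase forms phosphoenolpyruvate. Eno1 (chr4:150236721-150248879) was at 7.27, 5.10 and 3.95 CPM in the synaptosome pools, at 38.8 to 1118 CPM in controls (median 74.1) and at 61.2, 51.7 and 68.4 CPM with KCl. Eno2 (chr6:124760053-124769673) was at 23.2, 26.0 and 21.3 CPM in synaptosomes, at 52.6 to 450 CPM in controls (median 199) and at 264, 42.9 and 185 CPM with KCl. By counts, the neuronal form was the higher one in every library except sc3 and KCL1a. Per kilobase of transcript, Eno1 (23.3) and Eno2 (22.9) were nearly equal in Ctrl4, where neither was clear of the floor. sc3 held 15.2-fold the median Eno1 of the other controls but only 2.33-fold the median Eno2.

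Pyruvate kinase makes pyruvate and ATP in the last step. Pkm (chr9:59656368-59679375) was at 31.1, 26.9 and 31.8 CPM in synaptosomes, at 83.0 to 2757 CPM in controls (median 306) and at 399, 204 and 297 CPM with KCl. In CPM, without a term for gene length, its mean was the highest of the members in the 7 controls without sc3 (290.1 CPM). The same held for the KCl libraries (300.2 CPM), although in KCL4 Hk1 lay above it. In CPM of the mRNA total per kilobase of transcript, Aldoa was above Pkm in all 3 KCl libraries (medians 194 and 164). In the 7 controls the medians were 125 for Aldoa and 115 for Pkm. The tables count genes, so that the M1 and M2 splice forms are not separated.

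Among the lactate dehydrogenases, Ldha (chr7:46841475-46855627) was at 8.84, 8.16 and 5.72 CPM in synaptosomes, at 36.0 to 670.1 CPM in controls (median 76.2) and at 133, 53.6 and 90.2 CPM with KCl. Ldhb (chr6:142490249-142507957) was at 16.4, 18.3 and 16.3 CPM in synaptosomes, at 24.9 to 1596 CPM in controls (median 98.9) and at 103, 85.1 and 135 CPM with KCl. Ldhb was above Ldha in all 3 synaptosome pools and in 6 of 8 controls. sc3 held 16.9-fold the median Ldhb of the other controls and 9.34-fold the median Ldha.

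Levels of different genes were compared after division by the length of the principal transcript, as CPM of the mRNA total per kilobase. In synaptosomes the medians were 422 for Aldoc, 284 for Aldoa, 111 for Ldhb, 106 for Pkm, 68.8 for Eno2, 66.9 for Hk1, 41.4 for Ldha, 22.9 for Eno1, 2.46 for Pgk1 and 0.381 for Gapdh. Neighbours in this order kept it in every pool, other than Ldhb above Pkm (1 of 3 pools), Eno2 above Hk1 and Pgk1 above Gapdh (2 of 3 each). In the 7 controls without sc3 the medians ran from 125 for Aldoa, 125 for Gapdh and 115 for Pkm to 41.8 for Pgk1, with Aldoc seventh at 67.6. No pair of neighbours there was ordered the same way in every library. The members were thus spread over a wider range in synaptosomes than in chambers.

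The question of neuronal and glial isoforms was addressed by the ratio of counts within a library, which needs no scaling. Aldoc made up 72.4% to 75.7% of the aldolase counts (Aldoc and Aldoa) in synaptosomes, 24.4% to 55.2% in the 7 controls without sc3, 70.6% in sc3 and 16.7% to 37.4% in KCl libraries. All 3 synaptosome pools lay above all 8 controls, sc3 included. The gap to sc3 was narrow, pool 2 being at 72.4% (95% Wilson interval 70.8% to 74.0%) and sc3 at 70.6% (70.5% to 70.7%). The widest interval was that of Ctrl4, 31.1% to 52.2%, where Aldoc was not clear of the floor.

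On the log2 scale, with 0.5 counts added, the mean Aldoc to Aldoa ratio was 1.54 ± 0.13 (SD, n = 3) in synaptosomes and -0.32 ± 0.87 (SD, n = 8) in controls. The difference of 1.86 (SE 0.32), 3.63-fold, had an exact two-sided permutation p of 0.0121, the smallest that 3 against 8 libraries can give, and an adjusted p of 0.0727 over the 6 ratio tests, and thus missed 0.05. Without sc3 the difference was 2.09 (exact permutation p = 0.0167, again the smallest possible, adjusted p = 0.1). The summed level of the astrocyte markers in CPM of the mRNA total was 24767 to 31004 in synaptosomes, 16290 in sc3 and 1667 to 7033 in the other controls. A higher sum was not particular to astrocytes. Neuron markers were at 13712 to 19123 in synaptosomes, against 1864 to 12751 in the 8 controls. Oligodendrocyte markers were at 3009 to 4278 against 337 to 2639. The part of these cell types in the ratio was not tested.

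Eno1 made up 15.6% to 23.8% of the Eno1 and Eno2 counts in synaptosomes, 16.9% to 42.4% in the 7 controls, 71.3% in sc3 and 18.8% to 54.6% in KCl libraries. The synaptosomes overlapped the controls at the low end. The mean log2 ratio of Eno1 to Eno2 was -2.15 ± 0.41 (SD, n = 3) in synaptosomes and -0.96 ± 1.07 (SD, n = 8) in controls, a difference of -1.18 (SE 0.45) with an exact permutation p of 0.0242 and an adjusted p of 0.0727. Without sc3 it was -0.86 (exact permutation p = 0.0333, adjusted p = 0.1). The enolases and the aldolases thus leaned to opposite sides, the enolases to the neuronal form and the aldolases to the astrocytic form, with neither past the threshold after adjustment. 72.2% of the windows of Eno1 are repeated in the genome and 0.583% of those of Eno2.

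Ldhb made up 65.0% to 74.0% of the lactate dehydrogenase counts in synaptosomes, 40.9% to 69.5% in the 7 controls, 70.4% in sc3 and 43.8% to 61.4% with KCl. The mean log2 ratio was 1.19 ± 0.31 (SD, n = 3) against 0.46 ± 0.59 (SD, n = 8), a difference of 0.73 (SE 0.27) with an exact permutation p of 0.0848 and an adjusted p of 0.17. Without sc3 it was 0.84 (exact permutation p = 0.05, adjusted p = 0.1).

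**Figure D2:**
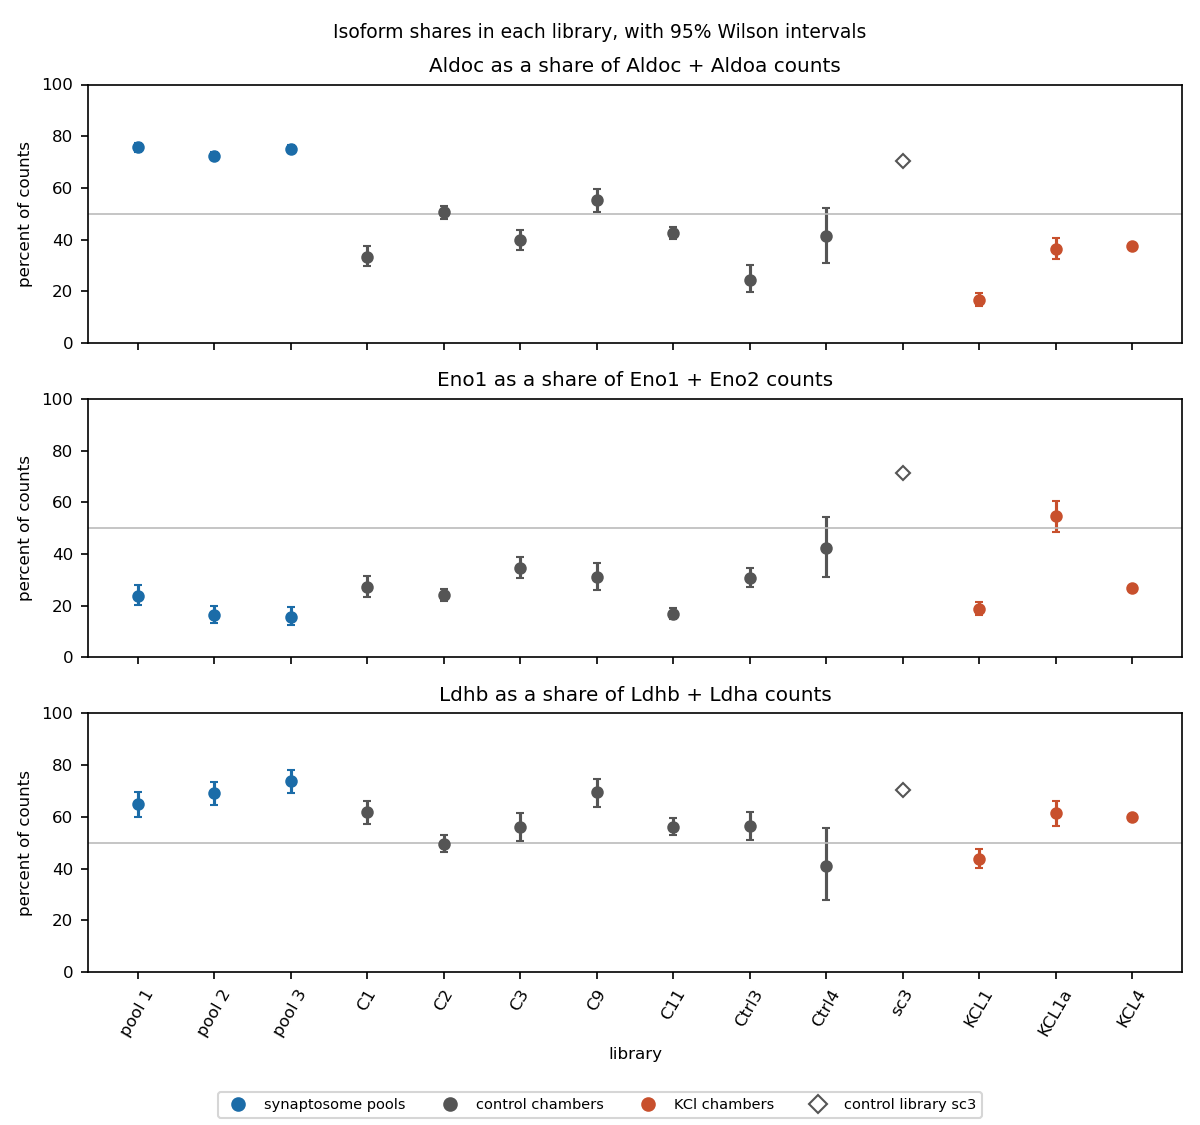
Share of Aldoc, Eno1 and Ldhb among the counts of each isoform pair (y axis, percent) in each library (x axis), with 95% Wilson intervals for counting error. The aldolase share of Aldoc is 72.4% to 75.7% in the 3 synaptosome pools and no more than 55.2% in the 7 controls other than sc3, where it is 70.6%, and sc3 also has the highest share of Eno1, 71.3%.

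With KCl no ratio passed the threshold. The mean log2 ratio of Aldoc to Aldoa was -1.29 ± 0.89 (SD, n = 3) with KCl, a difference of -0.97 (SE 0.60) from the controls (exact permutation p = 0.133, adjusted p = 0.2), which was -0.74 without sc3 and -0.45 without KCL1 (exact permutation p = 0.489). For Eno1 to Eno2 the difference was -0.13 (SE 0.80, exact permutation p = 0.933), and 0.20 without sc3. For Ldhb to Ldha it was -0.16 (SE 0.39, exact permutation p = 0.679), and -0.05 without sc3. Against the 3 controls with letters in their names alone, the kind of title that all KCl libraries have, the differences were -0.999 for Aldoc to Aldoa, -0.995 for Eno1 to Eno2 (exact permutation p = 0.4 for each, where 0.1 is the smallest possible) and -0.07 for Ldhb to Ldha. All 3 pairs overlapped between KCl and control libraries. 

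Whether KCl changed the level of the members was tested with edgeR across 28232 rows, with a term for the kind of title (bare numbers or names with letters), since all KCl titles hold letters. Calls needed a log2 fold change larger than 1 in size together with a Benjamini-Hochberg adjusted p no higher than 0.05. None of the 10 members was called, where 0.00354% of all rows were called higher and 0% lower. At an unadjusted p under 0.05 there were 4 of 10 members (6.16% of all rows). DESeq2 gave neither a p-value nor an adjusted p-value for 5 of the 10 members (Aldoa, Aldoc, Eno1, Pgk1 and Ldhb), which therefore could not be called. It left the adjusted p unassigned for 25917 of all rows. Of the members with a p-value none was called, where 406 of 28232 rows were called higher and 9 lower. The unadjusted p from DESeq2 was under 0.05 for 2 of these members (3077 of all rows). The log2 fold changes ran from -5.04 (SE 1.60, adjusted p = 0.584) for Aldoc to 0.50 (SE 0.89) for Hk1, with a median of -1.87, beside -0.53 over all rows tested. With no filter on low counts, Aldoc alone of the members was called, at -5.04 with an adjusted p of 2.17e-04. In that fit 40 of 43942 rows were called higher and 16 lower.

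These values rested on sc3. When it was left out, all 10 log2 fold changes were above 0, from 0.88 (SE 0.66) for Gapdh to 2.54 (SE 0.77) for Hk1, with a median of 2.06 beside -0.41 over all rows. Then 3 of 10 members were called higher (3.61% of all rows) and none lower (0.303%), and 8 of 10 had an unadjusted p under 0.05 (17.2%). The called members were Hk1 (adjusted p = 0.0474), Aldoa (2.42, SE 0.72, adjusted p = 0.0461) and Aldoc (2.35, SE 0.71, adjusted p = 0.0485). That fit sets the KCl libraries against Ctrl3 and Ctrl4 alone among controls with letters in their names. The summed neuron markers of those 2 libraries were at 3373 and 1529 CPM, against 4436 to 10107 CPM with KCl. Ctrl4 also had the highest median of the isozymes of other tissues among the controls, and Aldoc was not clear of the floor there. Neuron markers were called higher in the same fit at 9 of 15 and astrocyte markers at 5 of 17, and their part was not tested. With neither sc3 nor the term, an alternative added after seeing the data, no member was called (0.00712% of all rows were called higher), none had an unadjusted p under 0.05 (8.75% of all rows, edgeR), and the log2 fold changes were 0.18 (Aldoc) to 1.04 (Hk1). For no member did the KCl libraries lie wholly above or below the 8 controls, which 0.358% (above) and 0.841% (below) of 29367 genes did. A change of the members with KCl was not detectable in these libraries in a way that held with and without sc3.

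**Figure D3:**
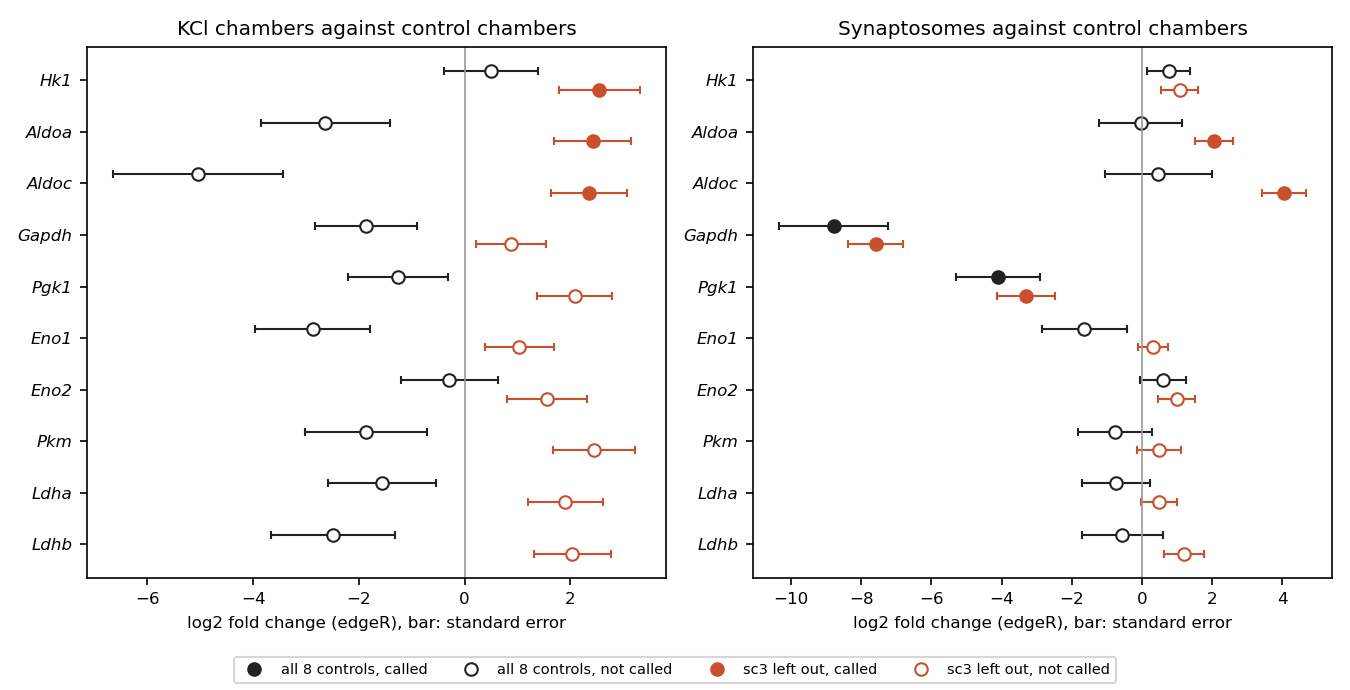
log2 fold changes (x axis, edgeR, bars are standard errors) of the 10 members, for KCl against control chambers (left) and synaptosomes against control chambers (right), with all 8 controls (black) and without sc3 (orange), filled where called. Leaving out sc3 moves 9 members from below to above 0 in the KCl comparison (Aldoc from -5.04 to 2.35), while Gapdh and Pgk1 stay far below 0 in synaptosomes in both fits.

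Synaptosomes and control chambers were compared with edgeR over 18412 mRNAs. Gapdh and Pgk1 were called lower, 2 of 10 members, where 7.4% of all mRNAs were called lower and 4.68% higher, and no member was called higher. The same 2 members had an unadjusted p under 0.05 (36.9% of all mRNAs). For Pgk1 the log2 fold change was -4.11 (SE 1.195, adjusted p = 0.0398). For Gapdh the adjusted p was 0.00429, and the fitted fold change depends on the value added to counts of 0 and 1, so that the Poisson interval above describes its size. The call of Pgk1 was lost in 8 of the 11 fits that left out 1 library (any synaptosome pool, or C1, C2, C3, C9 or C11), with adjusted p-values of up to 0.147, whereas Gapdh stayed called in all 11. Gapdh and Pgk1 were also the 2 members whose synaptosome libraries lay wholly below the 8 controls in CPM of the mRNA total, as did 19.3% of 18086 mRNAs (2.9% lay wholly above).

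The other members were not called with all 8 controls, and Aldoc stood at 0.46 (SE 1.52, adjusted p = 0.846), beside a median of -0.99 over all mRNAs. Without sc3, Aldoc (4.04, SE 0.62, adjusted p = 3.19e-04) and Aldoa (2.05, SE 0.54, adjusted p = 0.00853) were called higher, where 12% of all mRNAs were, and Gapdh and Pgk1 lower, where 26.5% were, and 5 of 10 members had an unadjusted p under 0.05 (51.4%). DESeq2 with all 8 controls called the same 4 genes, where it called 1619 of 18412 mRNAs higher and 5156 lower. Its log2 fold changes were 3.36 (SE 0.70) for Aldoc and 1.83 (SE 0.49) for Aldoa. These lay nearer to edgeR without sc3 than to edgeR with it (-0.04, SE 1.19, for Aldoa). DESeq2 was run with its default handling of outlying counts, so that these calls do not show what sc3 kept in full would give. The size for Aldoc and the direction for Aldoa depend on the scale. The median of Aldoc in synaptosomes was 1.01 times that of the 7 controls in CPM of the whole table, and 6.24 times in CPM of the mRNA total. Aldoa was 0.311 and 2.27 times, Eno2 0.120 and 0.771 times, and Hk1 0.154 and 0.981 times. In the same fit without sc3, astrocyte markers were called higher at 16 of 17 and neuron markers at 6 of 15. Their part in the levels of Aldoc and Aldoa was not tested.

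By the study's cutoffs, Aldoc alone of the 10 members was detected in synaptosomes (1.54% of 15109 mRNAs reached 50 CPM), and it reached the cutoff in every pool (1.2% of mRNAs did). In control chambers 9 of 10 were detected, all except Pgk1 (6.54% of 21341 mRNAs reached 100 CPM). Without sc3 there were 7 (5.98% of mRNAs), since the means of Eno1 and Ldha lay below 100 CPM, and only Hk1 reached the cutoff in every control library (0.872% of mRNAs did). In CPM of the mRNA total, 7 members reached 50 in synaptosomes (19.4% of mRNAs did), all except Eno1, Gapdh and Pgk1.

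The rest of the pathway was read from 18 other core glycolytic genes. In control chambers 4 reached the cutoff, the phosphofructokinases Pfkp (mean 152 CPM) and Pfkm (140 CPM), the triose phosphate isomerase Tpi1 (140 CPM) and the glucose phosphate isomerase Gpi1 (138 CPM). Without sc3, Tpi1 (69.9 CPM) was no longer among them. Pfkl (59.96 CPM) and Pgam1 (58.7 CPM), the phosphoglycerate mutase, followed, with means of 28.3 and 30.7 CPM without sc3. None reached the cutoff in synaptosomes, where Gpi1 (22.2 CPM) and Pfkm (22.8 CPM) were the highest of these 6 and Pgam1 was at 0.423 CPM. KCl called none of the 17 tested (edgeR, 1 unadjusted p under 0.05, 6.16% of all rows). The median log2 fold change was -0.66 beside -0.53 over all rows, and 0.38 beside -0.41 without sc3. In synaptosomes, of the 16 tested, Ldhd was called higher and Hkdc1 lower with all controls (4.68% and 7.4% of all mRNAs were), and 6 were called higher and 6 lower without sc3 (12% and 26.5% of all mRNAs). The higher ones were Pfkm, Gpi1, Tpi1, Pfkl, Bpgm and Ldhd. The lower ones were Pgam1, Hkdc1 and Eno4 together with 3 of the isozymes of other tissues named above (Pklr, Eno3 and Ldhc), which belong to the floor in chambers. Hkdc1 was at 3.75 CPM in sc3 and at 18.3 to 51.8 CPM in the other 7 controls. The highest of the 6 isozymes was at 6.33 to 55.4 CPM in those 7, so that Hkdc1 lay in the range of the floor.

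Of 23 genes of glucose and lactate transport and of the control of glycolysis, 3 reached the cutoff in control chambers, namely Bsg (261 CPM), the partner of lactate transporters, Pdha1 (124 CPM), a subunit of pyruvate dehydrogenase, and the neuronal glucose transporter Slc2a3 (104 CPM). Hif1a (98.6 CPM), the lactate transporter Slc16a7 (70.6 CPM) and Pdhb (68.9 CPM) followed. None reached it in synaptosomes, where Bsg was at 33.5 CPM. KCl called none of the 23 (edgeR, 1 unadjusted p under 0.05, 6.16% of all rows), and without sc3 Pdha1, Hif1a and Pdhb were called higher (3.61% of all rows). In synaptosomes Slc2a4 and Pfkfb1 were called lower (7.4% of all mRNAs were) and none higher, and without sc3 Pdk2 and Pdk3 were called higher (12%) and Slc2a4, Pfkfb1 and Pfkfb4 lower (26.5%). Slc2a4 (mean 22.8 CPM in control chambers) and Pfkfb1 (17.8 CPM) were at the level of Pklr (18.5 CPM), an isozyme of the floor.

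Across the 8 control libraries, the mRNAs most like Aldoc, by Pearson's r of log2 (CPM of the mRNA total + 1) among 1396 mRNAs with a mean of at least 100 CPM, were Prdx2 (r = 0.988), Wbp2 (0.983), Serpine2 (0.980) and Cd81 (0.977), and r without sc3 was 0.906 to 0.946. For Eno2 they were Tcf25 (0.983), Arpp19 (0.982), Rrp1 (0.979) and Dpysl2 (0.977), with 0.971 to 0.988 without sc3. For Gapdh they were Gmfb (0.963), Ndrg2 (0.951), Abat (0.947) and Slc5a3 (0.944), with 0.711 to 0.856 without sc3. Among the 7 controls without sc3, the mRNAs most like Aldoc were Celf1 (0.990), Cox8a (0.987), the astrocyte filament gene Gfap (0.985) and Ndufb9 (0.980). These values describe libraries that also differ in depth and in their floor, and when sc3 was left out the 4 nearest mRNAs changed for all 3 genes, with Rrp1 for Eno2 the only one that remained.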

How the data were processed

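Total RNA was sequenced from 3 synaptosome pools and from 8 control and 3 KCl libraries of microfluidic chambers. Per the labels and the study's methods, the authors converted reads with bcl2fastq 2.20.2, used STAR 2.5.2b for the alignment to mm10, and obtained gene counts from featureCounts 1.5.1. The authors deposited raw counts per gene and library, with no normalization. They also deposited CPM, which the authors made by scaling the counts to the table's total; the values recomputed from the counts matched these. The study calls these values TPM, but they hold no term for gene length. mRNAs are the rows of the total RNA table that are not in the lncRNA table, of which gene identifiers alone were used. Small RNA tables and the counts of the lncRNA table were not used here. The chamber columns C1 and C11 could be matched to the control group but not to 1 sample each.

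The 10 members, the gene lists and the marker lists were chosen with earlier results of these data known. All members are named; of other lists at most 6 genes by highest mean CPM in control chambers, and, chosen after their values were seen, other genes of these lists that passed a test. Some genes of the list of core glycolytic genes are not reported here.

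Counts were tested with edgeR 4.0.16 (quasi-likelihood, TMM, filterByExpr) in R 4.3.3, with p-values adjusted over all rows tested. DESeq2 1.42.0, other scalings, filters, controls and terms, a replicate block, and each library left out were alternatives. Ratios within a library used 0.5 added counts and exact two-sided permutation tests, adjusted over 6 tests. Copies were found with blastn 2.17.0 against GRCm38, from GENCODE transcripts. Scripts were tested on simulated data, with a set spread between libraries beyond counting error (dispersion). In the KCl design at a dispersion of 0.05, edgeR recovered 43 of 50 genes changed 4-fold. At a dispersion of 1 it recovered 0 of 50 changed 16-fold, and DESeq2 recovered 16 of 50 with 62 false calls. A KCl change can thus be missed where libraries vary that much. Counts of replicate pairs differed by more than sampling noise (chi-square per degree of freedom of 5.56 or more), so that no library was counted as a repeat sequencing of another. This check cannot tell separate libraries of the same RNA or culture from independent ones. KCL1 and KCL1a (41.0) share a title number, and how they are related is not given. Depth limits precision: 3 counts equal 0.180 to 0.204 CPM in synaptosomes and 4.15 CPM in the shallowest control. Intervals and floors cover counting error only.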

Additional observations from a re-analysis of the deposited data

Results flagged for a closer look

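In the 8 control chambers, 8 of the 13 sets of values examined (the CPM of the 10 members and 3 isoform ratios) held 1 library that lay far from the rest by Dixon's criterion, and it was sc3 each time. Its values were 7929 CPM for Aldoc, 3303 CPM for Aldoa, 2757 CPM for Pkm, 1596 CPM for Ldhb, 1118 CPM for Eno1, 983 CPM for Gapdh, 670.1 CPM for Ldha and 266 CPM for Pgk1. Chance alone puts about 1 in 20 such sets past the criterion, and the sets share their libraries. The sets for Hk1 (441 CPM in sc3), for Eno2 (450 CPM in sc3) and for the 3 ratios did not pass it. sc3 is also the deepest control, has the highest share of counts on mRNAs, 97.3%, and the highest summed astrocyte and oligodendrocyte markers, and the part of each in its values was not tested.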

How the results depend on the processing

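The count of genes called with KCl (1) was 415 with DESeq2, 56 with no filter, 967 with a factor of unwanted variation, and 0 with no term for the kind of title, with lettered controls only, with mRNAs only and with no scaling beyond the library total; it was 2 with neither the term nor sc3, and 0 to 1098 when 1 library was left out (7 without KCL1a, 1098 without sc3). For synaptosomes the count (2223) was 6775 with DESeq2, 7403 with bare-number controls only, 6458 with no scaling beyond the mRNA total, and 237 to 7036 with 1 library left out (295, 361 and 237 without pools 1, 2 and 3, and 1136, 1168 and 7036 without C3, C9 and sc3). Another scaling moved the median log2 fold change of all rows from -0.53 to -0.75 (RLE) and -1.16 (none) with KCl, and of all mRNAs from -0.99 to -1.06 and -2.10 in synaptosomes, where the calls with no scaling were 353 higher and 6105 lower, against 861 and 1362. The cause of these shifts was not tested.

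Title numbers are shared between KCl and control libraries, but same-numbered libraries did not deviate together (r = 0.08, -0.17 and -0.34). Only C1 (with KCL1 and KCL1a) and Ctrl4 (with KCL4) shared a number with a KCl library. A block by title number therefore takes the KCl difference from these controls and not from sc3. With this number as a replicate block, 0 genes were called and all 10 members were above 0: Aldoa 0.82, Aldoc 0.23, Eno1 0.33, Eno2 0.72, Gapdh 0.24, Pgk1 0.31, Pkm 0.57, Ldha 0.67 and Ldhb 0.34 had reversed in sign. With the factor of unwanted variation, Aldoa (0.31), Eno2 (0.46), Pgk1 (0.46), Pkm (0.63), Ldha (0.33) and Ldhb (0.14) reversed, and with no term for the kind of title Eno2 (0.061) did. With neither the term nor sc3, Aldoa was 0.89, Aldoc 0.18, Eno1 0.52, Eno2 0.58, Gapdh 0.40, Pgk1 0.38, Pkm 0.53, Ldha 0.80 and Ldhb 0.62. Leaving out 1 library gave ranges of -3.21 to 2.42 (Aldoa), -5.98 to 2.35 (Aldoc), -3.44 to 1.03 (Eno1), -0.83 to 1.55 (Eno2), -2.62 to 0.88 (Gapdh), -1.87 to 2.08 (Pgk1), -2.43 to 2.44 (Pkm), -2.11 to 1.90 (Ldha) and -3.11 to 2.03 (Ldhb), the highest in each case without sc3.

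In synaptosomes, Aldoa was 1.83 with DESeq2, 0.23 with RLE and 1.70 with bare-number controls. Eno1 was 0.18 with DESeq2 and 0.15 with bare-number controls, Ldhb 1.06 and 0.87, and with bare-number controls Pkm was 0.11 and Ldha 0.20. With no scaling Eno2 was -0.31 and Hk1 -0.16. Leaving out 1 library gave -0.21 to 2.05 (Aldoa), -1.88 to 0.32 (Eno1; -1.80 at the lowest with a control left out), -0.93 to 0.49 (Pkm), -0.89 to 0.48 (Ldha) and -0.73 to 1.198 (Ldhb). Of the 6 ratio comparisons, leaving out 1 library turned the sign for KCl in Eno1 to Eno2 (-0.81 to 0.38) and Ldhb to Ldha (-0.35 to 0.16), while the other 4 kept their sign and no adjusted p went below 0.05. Members at the cutoff numbered 7 in synaptosomes with CPM of the mRNA total and 1 in controls when every library had to reach it.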
